A study of Mus musculus with 8 samples.

Results

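The genes described here are brakes that hold a cell in G1 of the cell cycle, together with Lmnb1, and are read in the study of senescence. The brakes are the CIP/KIP inhibitors Cdkn1a, Cdkn1b and Cdkn1c, the INK4 inhibitors Cdkn2a, Cdkn2b, Cdkn2c and Cdkn2d, and the tumour suppressors Rb1 and Trp53. Lmnb1 encodes lamin B1, a protein of the nuclear lamina, and it is its loss that is read as a mark of senescence. All of these genes are called members here. The members were chosen by symbol, 10 genes in all, and 9 of them were measured among the 22180 genes of the array. Trp53 was not analysed here. The data are 1-colour Affymetrix whole-transcript array intensities from cultured mouse melanocytes, which make the skin's pigment. The pups that gave the cells were 1 to 5 days old, and the cells were kept in culture for 22 days. All cells carried floxed Atg7 alleles. Those with the floxed alleles alone (Atg7 f/f, called WT) can perform autophagy, while those that also carried a Cre transgene driven by the tyrosinase promoter (Atg7 f/f Tyr::Cre, called KO) are autophagy deficient, since Atg7 encodes the E1-like enzyme of autophagosome formation. That promoter acts in pigment cells, so other cell types in a culture may keep Atg7, which was not measured by cell type. Cells of both genotypes were exposed to 20 J/cm² UVA-1 (UVA) or sham treated and lysed for RNA after 6 h. The 8 arrays form 4 groups of 2 biological duplicates, numbered 1 and 2 in every group: WT and KO cells, each after sham and after UVA. All samples are labelled female, and the labels do not say how many pups gave a culture. The question in the series title is whether autophagy deficient melanocytes show a senescence-associated secretory phenotype; the inhibitors and lamin B1 bear on its senescence part.

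In the textbook pathway, mitogens raise D cyclins, which with CDK4 and CDK6 begin to phosphorylate the RB protein, and cyclin E with CDK2 completes it, releasing E2F factors that switch on genes of DNA replication. INK4 proteins bind CDK4 and CDK6, and CIP/KIP proteins act mainly on CDK2 complexes. The p53 protein induces Cdkn1a after DNA damage. p16, from the Cdkn2a locus, is known as a barrier to growth in melanocytes, and loss of lamin B1 mRNA is a widely used sign of senescence.

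Promoter regions of 2 genes are shown because the results turn on Cdkn1a and Cdkn2a. Each is the stretch of 250 bases before an annotated transcript start in RefSeq (GRCm38.p6), 5′ to 3′ on the gene's strand. Cdkn1a has 2 starts in that table, 2790 bases apart. The first region lies before the upstream start (chr17:29090729-29090978, plus strand). Capitals mark a match to the p53 response element, 2 adjacent half-sites with no spacer and at most 1 mismatch. Its last base lies 32 bases before that start, and such a match occurs in 19 of 32851 promoter regions of this length (0.0578%).
Cdkn1a upstream start: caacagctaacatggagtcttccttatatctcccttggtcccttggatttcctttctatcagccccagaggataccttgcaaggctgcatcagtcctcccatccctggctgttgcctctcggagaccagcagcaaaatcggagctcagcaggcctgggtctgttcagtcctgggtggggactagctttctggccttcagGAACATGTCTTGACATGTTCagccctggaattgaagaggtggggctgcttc
Cdkn2a makes 2 unrelated proteins from starts 12427 bases apart, p19Arf from the upstream start and p16Ink4a from the downstream one, with exons in common. The array table holds 1 probe set for the gene, so the values below are for the locus and do not separate the products. Capitals in the upstream region (chr4:89294620-89294869, minus strand) mark TTTCCCGC, an E2F-type motif searched on both strands, which 0.895% of the regions hold. The downstream region (chr4:89282193-89282442, minus strand) has no match to it.
Cdkn2a upstream start, p19Arf: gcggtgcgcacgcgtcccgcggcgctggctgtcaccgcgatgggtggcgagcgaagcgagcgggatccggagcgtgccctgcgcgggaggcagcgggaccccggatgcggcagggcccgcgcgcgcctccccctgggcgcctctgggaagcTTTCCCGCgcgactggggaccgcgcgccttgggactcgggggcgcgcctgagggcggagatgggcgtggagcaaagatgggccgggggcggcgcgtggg
Cdkn2a downstream start, p16Ink4a: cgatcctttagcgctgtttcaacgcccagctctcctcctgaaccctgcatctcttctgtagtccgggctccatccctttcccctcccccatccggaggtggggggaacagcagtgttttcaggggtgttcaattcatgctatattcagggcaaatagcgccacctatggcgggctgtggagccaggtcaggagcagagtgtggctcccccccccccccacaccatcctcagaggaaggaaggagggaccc
These motifs, and 2 further E2F-type motifs, TTTGGCGC and TTTCGCGC, were searched in the 9 regions of the 6 genes that the table lists, and no other match was found. A match describes the letters in the window and was not measured as binding. Regions for Cdkn1c, Rb1 and Lmnb1 are not shown.

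All 10 melanocyte markers tested, among them Tyr, Dct and Pmel, lay above the array median on every array. So did all 11 measured fibroblast markers and all 6 Schwann cell markers, so the markers show melanocyte transcripts on every array without showing that the cultures held melanocytes alone. The summed intensity of the fibroblast markers was 51870 to 54932 on the arrays of number 1, 9224 to 10628 on the WT arrays of number 2 and 21053 to 22759 on the KO arrays of number 2. The summed melanocyte markers were 56802 to 60807 in number 1, 100625 to 102153 in WT of number 2 and 88268 to 89808 in KO of number 2. In such bulk RNA, fewer cells of a type and less RNA per cell cannot be told apart. The probe set for Atg7 itself read 989, 1004, 831 and 804 in number 1 and 859, 832, 598 and 602 in number 2 (order here and in all later lists: WT after sham, WT after UVA, KO after sham, KO after UVA), so KO was lower in every pair, by 0.39 log2 units on average (limma adjusted p = 0.297 with the replicate block described next, and 1 in the unblocked fit).

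None of the 9 genes passed the test over all genes in any of the 7 comparisons made. Tests were run with limma on log2 intensity with Benjamini-Hochberg adjustment and a threshold of 0.05. The fit without a block called 0% of all genes in each comparison. Arrays of the same number deviated together, so values from a second fit, in which the number entered as a block, are given beside it. For UVA a block for each combination of genotype and number, called a culture here, is also given. The titles do not state whether its sham and UVA arrays came from 1 culture. A difference that did not pass is given as a value with its 95% interval, which covers the spread between arrays as the blocked fit estimates it. Differences are in log2 units of intensity throughout. No gene of the 9 had all 4 KO arrays below all 4 WT arrays (0.942% of all genes did) or all above them (0.866%). At an unadjusted p under 0.05, the unblocked fit had 0 of the 9 genes for genotype, where 2.33% of all genes lay, and 1, Cdkn1a, for UVA, where 1.81% lay.

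**Figure D1:**
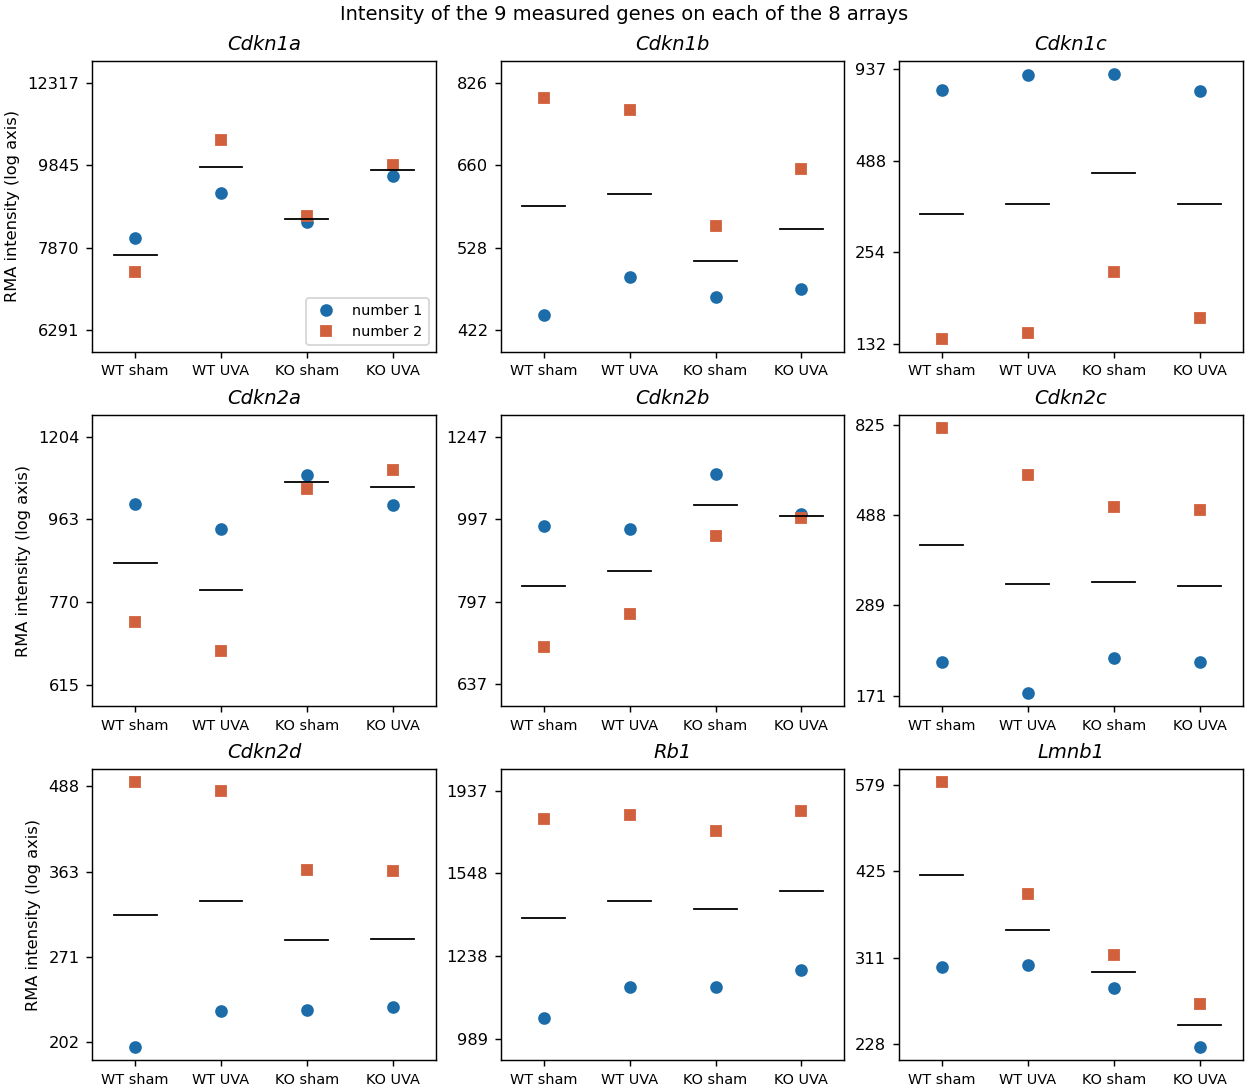
RMA intensity (log axis, a separate scale in each panel) of each gene on the 8 arrays, circles for number 1 and squares for number 2, with a line at the geometric mean of the 2 arrays of a group. Cdkn1c, Cdkn2c, Cdkn2d, Rb1 and Cdkn1b separate by number, Lmnb1 is lowest in KO after UVA within each number, and Cdkn1a is higher after UVA.

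Lamin B1 showed the largest genotype difference among the 9 genes. Lmnb1, which encodes a protein of the lamina under the inner nuclear membrane, read 301, 303, 279 and 226 in number 1 and 585, 391, 314 and 264 in number 2. KO was below WT in all 4 pairs of the same number and treatment, a pattern shown by 7.78% of all genes, but the genotypes overlapped across numbers: KO sham of number 2 (314) lay above both WT arrays of number 1. On the log2 scale the WT groups averaged 8.71 ± 0.68 after sham and 8.43 ± 0.26 after UVA, and the KO groups 8.21 ± 0.12 and 7.93 ± 0.16 (SD, n = 2 each). KO stood at 0.708 of WT on average over treatments, a difference of -0.50 (SE 0.14, interval -0.82 to -0.18), with a limma adjusted p of 0.477 with the block and 1 without it. Without the block the interval was -1.06 to 0.06. The difference was -0.50 after sham and -0.49 after UVA. It was -0.27 in number 1 and -0.73 in number 2.

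The other lamins did not share this difference in size. Lmna, the gene of lamins A and C, differed by -0.02 (interval -0.16 to 0.12) and Lmnb2, the second B-type lamin gene, by -0.07 (-0.27 to 0.13). Of 11 measured genes of the nuclear lamina and envelope, 4 were higher and 7 lower in KO, with a median of -0.02 beside -0.0098 for all genes, and 0 passed. The genes of that list with the largest differences were Syne1, a nesprin of the outer membrane (0.27; -0.11 in number 1 and 0.65 in number 2), and Tmpo, which encodes the lamina-associated polypeptide LAP2 (-0.24; -0.07 and -0.41). Among 10 measured chromatin proteins linked to senescence, 9 were lower in KO (median -0.16) and 0 passed. Hmgb2, a chromatin-bending protein known to decline in senescent cells, was at 0.746 of WT (-0.42, SE 0.09, limma adjusted p = 0.376 with the block) and lower in all 4 pairs. For Hmga2, a chromatin protein of growing and senescent cells, the values were -0.02 (number 1) and 0.83 (number 2).

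Proliferation genes had, on average, the same sign as Lmnb1. Averaged over treatments and numbers, all 23 measured E2F and proliferation genes were lower in KO (median -0.36), and 0 passed in either fit. The sign was not shared by every number and treatment: in number 1 Mcm2, Mcm3, Mcm4, Mcm5, Mcm7 and Pcna, genes of DNA replication, were higher in KO by 0.06 to 0.15, and after UVA 2 of the 23 were higher. The median was -0.10 in number 1 and -0.57 in number 2, beside -0.27 and -0.73 for Lmnb1. Cdc20, an activator of the anaphase-promoting complex, read 305, 296, 250 and 226 in number 1 and 1496, 1289, 960 and 788 in number 2, a difference of -0.51 (SE 0.09, limma adjusted p = 0.307 with the block). Aurkb, a mitotic kinase, differed by -0.49 (-0.05 in number 1 and -0.94 in number 2). Schwann cell markers, which neural crest cells share in part, summed to 7057 to 7280 in WT and 8475 to 8685 in KO of number 1, and to 11236 to 11807 and 10817 to 11264 in number 2. Myeloid markers summed to 1034 to 1164 and 1188 to 1222 in number 1, and to 1341 to 1419 and 2466 to 2696 in number 2. Lyz2 alone read 557, 452, 1717 and 1554 in number 2. Of the 8 myeloid markers 3 were higher and 5 lower in KO (median -0.02). On each array 5 or 6 of them lay below the array median. Fibroblast markers differed by a median of -0.05 in number 1 and 1.18 in number 2, and melanocyte markers by 0.04 and -0.33. Schwann cell markers differed by a median of 0.53 in number 1 and 0.07 in number 2. The part of these cell-type markers in the Lmnb1 difference was not tested. Within number 1 Lmnb1 differed by -0.11 after sham and -0.42 after UVA.

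**Figure D2:**
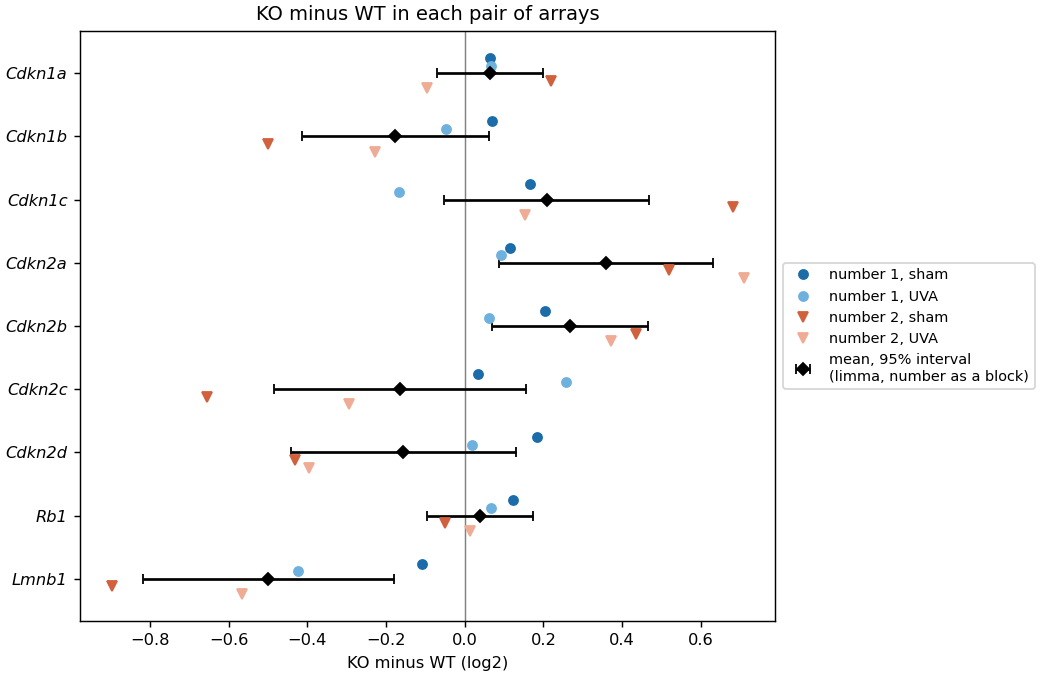
KO minus WT difference (log2, horizontal axis) of each gene in the 4 pairs of arrays with the same number and treatment, with the mean and its 95% interval from the limma fit with the number as a block (diamonds). Lmnb1 lies below 0 and Cdkn2a and Cdkn2b lie above 0 in all 4 pairs.

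Averaged over treatments, the neighbouring INK4 genes Cdkn2a and Cdkn2b had the largest upward differences in KO among the inhibitors; after sham alone Cdkn1c had a larger one, given below. Cdkn2a read 1003, 938, 1086 and 1000 in number 1 and 729, 673, 1046 and 1101 in number 2. KO exceeded WT in all 4 pairs, as for 7.65% of all genes, and the groups overlapped only where KO UVA of number 1 (1000) met WT sham of number 1 (1003). The mean difference was 0.36 (SE 0.11, interval 0.09 to 0.63), or 1.28-fold, with a limma adjusted p of 0.517 with the block and 1 without it. Without the block the interval was -0.03 to 0.75. The difference was 0.10 in number 1 and 0.62 in number 2. Cdkn2b, which encodes p15 and lies beside Cdkn2a on chromosome 4, read 979, 970, 1127 and 1012 in number 1 and 705, 772, 953 and 1000 in number 2. KO again exceeded WT in all 4 pairs, by 0.27 on average (SE 0.08, interval 0.07 to 0.47, limma adjusted p = 0.505 with the block). Without the block the interval was -0.10 to 0.64. Both genes were lowest on the 2 WT arrays of number 2, the arrays with the lowest fibroblast markers, and the part of those markers was not tested. In number 1 the KO minus WT differences of Cdkn2b were 0.20 after sham and 0.06 after UVA.

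The remaining INK4 genes did not share this pattern. Cdkn2c, which encodes p18, read 208, 174, 213 and 208 in number 1 and 810, 618, 514 and 504 in number 2. KO minus WT came to 0.15 for number 1 and to -0.48 for number 2, with an interval for the mean of -0.48 to 0.16. Cdkn2d, which encodes p19Ink4d, read 199, 225, 226 and 228 in number 1 and 494, 479, 366 and 364 in number 2. Its difference was 0.10 in number 1 and -0.41 in number 2 (interval of the mean -0.44 to 0.13). For both genes KO exceeded WT in both pairs of number 1 and lay below WT in both pairs of number 2.

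Cdkn1a, the CIP/KIP gene that encodes p21, had a KO minus WT difference of 0.06 (SE 0.06, interval -0.07 to 0.20; limma adjusted p = 0.762 with the block), 0.14 after sham and -0.01 after UVA. Cdkn1b, which encodes p27, read 440, 488, 462 and 472 in number 1 and 792, 766, 560 and 654 in number 2, so the genotype difference was 0.01 in number 1 and -0.36 in number 2 (interval of the mean -0.41 to 0.06). Cdkn1c, which encodes p57, read 806, 902, 904 and 803 in number 1 and 137, 143, 220 and 159 in number 2. Its difference was -0.0011 in number 1 and 0.42 in number 2 (interval of the mean -0.05 to 0.47). After sham Cdkn1c differed by 0.42 (interval 0.06 to 0.79, limma adjusted p = 0.856 with the block), beside 0.32 for both Cdkn2a and Cdkn2b, and after UVA by -0.0074. Rb1, the gene of the RB protein, read 1046, 1136, 1138 and 1190 in number 1 and 1795, 1814, 1735 and 1832 in number 2. Its difference of 0.04 had an interval of -0.10 to 0.17, the narrowest span with that of Cdkn1a.

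Of the 9 genes, 2 were higher and 1 lower in KO at an unadjusted p under 0.05 in the blocked limma fit, beside 8.88% of all genes (4.93% higher and 3.95% lower). Past the adjusted threshold the blocked fit called 0.0316% of all genes, and 0 of the 9. The members were picked with earlier results of these data known, so these shares describe the genes and do not test the group. That fit counts sham and UVA arrays of 1 genotype and number as independent. Its p-values are too small and its intervals too narrow where those arrays share cells.

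No gene of the cell-cycle machinery that these inhibitors act on passed for genotype. Of 11 measured G1 cyclins and kinases, 4 were higher and 7 lower in KO (median -0.09) and 0 passed. Cdk2, the partner of cyclin E, read 1790, 1677, 1463 and 1731 in number 1 and 6001, 5253, 3442 and 3838 in number 2, a mean difference of -0.38 (SE 0.11). Cdc25a, the phosphatase that activates CDK2, differed by -0.17. Of 12 pocket protein and E2F genes, 6 were higher and 6 lower (median 0.0092) and 0 passed. E2f7, a repressive E2F, differed by -0.02 in number 1 and -0.73 in number 2, and Rbl1, which encodes the RB relative p107, by 0.09 and -0.59. Averaged over treatments and numbers, all 17 measured p53 target genes had a positive difference (median 0.12), and 0 passed. After sham 16 were higher in KO and after UVA 12, and in number 2 Sesn1 (-0.23), Pmaip1 (-0.19), Xpc (-0.11) and Tigar (-0.03) were lower. Perp, a p53 target of cell junctions, was 1.34-fold higher in KO (0.42, SE 0.10, limma adjusted p = 0.417 with the block). It was dim, at 102, 97, 113 and 131 in number 1, where the array medians were 110 to 112. In number 2 Perp read 162, 128, 222 and 200. Btg2, an antiproliferative p53 target, differed by 0.07 in number 1 and 1.02 in number 2.

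**Figure D3:**
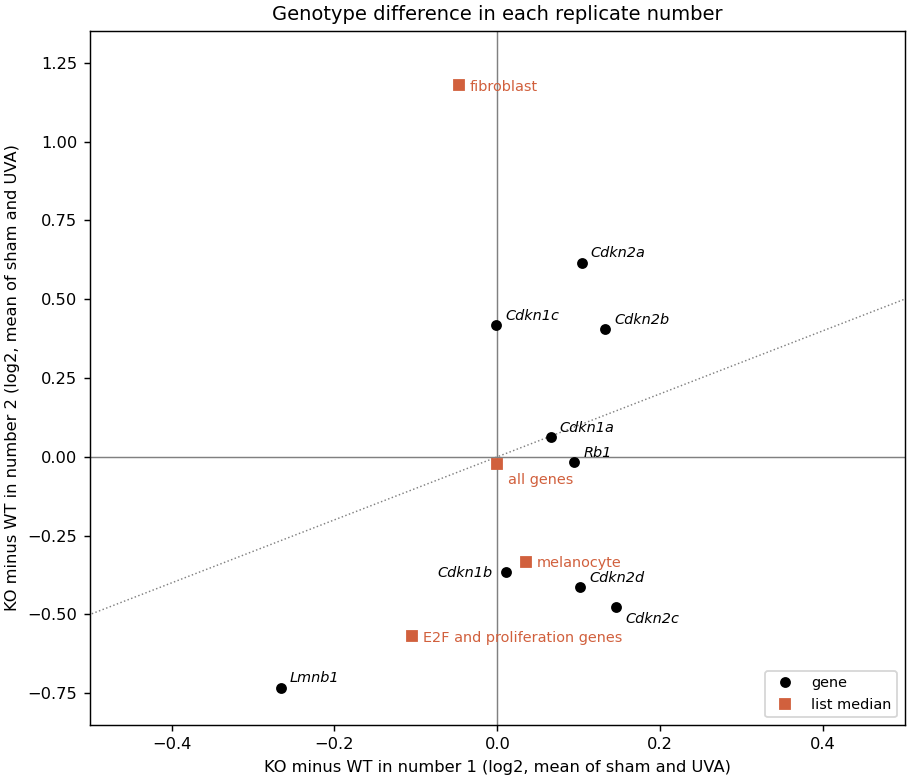
KO minus WT difference (log2, mean of sham and UVA) in number 1 (horizontal axis) against number 2 (vertical axis) for the 9 genes (circles) and the medians of 3 gene lists and of all genes (squares); the dotted line marks equal differences, and the axes have different ranges. Lmnb1 lies below 0 in both numbers, Cdkn2a and Cdkn2b lie above 0 in both, and the fibroblast markers differ by -0.05 in number 1 and 1.18 in number 2.

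UVA-1 was followed by higher Cdkn1a in every culture. Cdkn1a read 8077, 9133, 8443 and 9570 in number 1 and 7360, 10527, 8573 and 9855 in number 2. All 4 UVA arrays, from 9133 to 10527, lay above all 4 sham arrays, from 7360 to 8573, a separation seen for 1.23% of all genes. On the log2 scale the WT groups averaged 12.91 ± 0.095 after sham and 13.26 ± 0.14 after UVA, and the KO groups 13.06 ± 0.016 and 13.25 ± 0.030 (SD, n = 2 each). The averaged difference was 0.27 (SE 0.06, interval 0.13 to 0.40), or 1.21-fold, with a limma adjusted p of 1 without a block, 0.600 in the replicate block fit and 0.0696 in the culture block fit. It did not pass in any of these fits. For the averaged comparison the replicate block called 0.0135% of all genes and the culture block 0.437%, and 0 of the 9 in either. Within WT these shares were 0.00451% and 0.0541%, and within KO 0.00902% in each, again with 0 of the 9. At an unadjusted p under 0.05 the replicate block had 1 of the 9 (Cdkn1a), beside 6.54% of all genes, and the culture block had 3 (Cdkn1a, Cdkn2c and Lmnb1), beside 12.6%. The difference was 0.35 in WT and 0.19 in KO. Within WT it was 0.18 in number 1 and 0.52 in number 2, and within KO 0.18 and 0.20.

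The p53 target list had the same direction. Of 17 measured p53 targets, 16 were higher after UVA averaged over genotypes, with a median of 0.17 beside 0.0023 for all genes. In WT 16 were higher (median 0.19) and in KO 12 (median 0.076), a difference that was not tested for the list. The list does not hold Cdkn1a. Trp53inp1, a nuclear protein of the p53 stress response, read 816, 1264, 1060 and 1397 in number 1 and 1190, 1876, 1383 and 2125 in number 2. It rose by 0.58 (1.49-fold) in the limma fit with the culture as a block (SE 0.05, adjusted p = 0.0070) and did not pass with the replicate number alone as a block (0.134) or without a block (1). It was the 1 gene of the list to pass. In the same fit 2 cell-type markers passed as lower after UVA: Ngfr, a Schwann cell and neural crest receptor gene (-0.52, SE 0.06, limma adjusted p = 0.0222), and Pdgfrb, a fibroblast receptor gene (-0.28, SE 0.04, 0.0485). Of the 11 fibroblast markers 10 were lower after UVA (median -0.10), and of the 6 Schwann cell markers 3 were (median -0.0027). The part of these markers in the UVA differences was not tested. Sesn2, a stress-induced regulator of mTORC1, was 1.27-fold higher (limma adjusted p = 0.0970 with the culture block). Mdm2, the ubiquitin ligase that degrades p53, was 1.17-fold higher (0.0868 with that block), and both were higher after UVA in all 4 pairs.

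**Figure D4:**
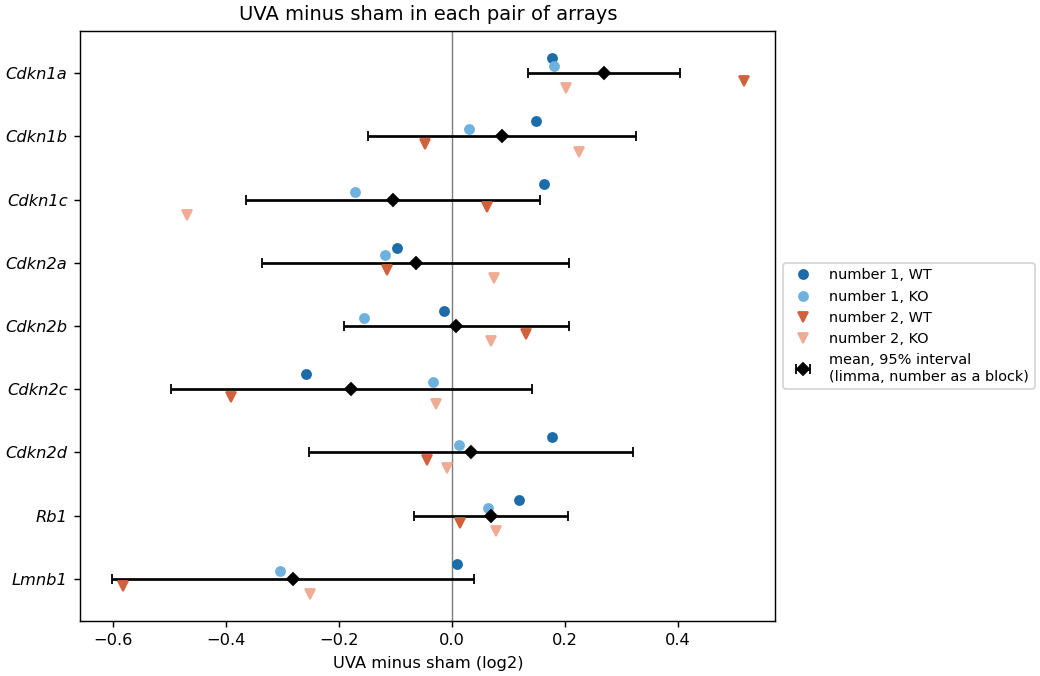
UVA minus sham difference (log2, horizontal axis) of each gene in the 4 pairs of arrays with the same genotype and number, with the mean and its 95% interval from the limma fit with the number as a block (diamonds). Cdkn1a and Rb1 lie above 0 and Cdkn2c lies below 0 in all 4 pairs; the Cdkn1a mean is 0.27.

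Lmnb1 was lower after UVA in 3 of 4 pairs. The differences were 0.01 in WT and -0.30 in KO of number 1, and -0.58 in WT and -0.25 in KO of number 2, with a mean of -0.28 (interval -0.60 to 0.04 with the number as a block; -0.50 to -0.06 with the culture as a block, limma adjusted p = 0.265). KO UVA thus held the lowest Lmnb1 intensity in each number, 226 and 264. Cdkn2c was lower after UVA in all 4 pairs, as for 9.08% of all genes, by 0.26 and 0.39 in WT and by 0.03 and 0.03 in KO. Its mean of -0.18 had a limma adjusted p of 0.286 with the culture block. Rb1 was higher in all 4 pairs, as for 10.6% of all genes, by 0.07 on average (interval -0.07 to 0.20). Cdkn2a and Cdkn2b showed little difference with UVA: -0.06 (interval -0.34 to 0.21) and 0.0080 (-0.19 to 0.21). Cdkn1b differed by 0.09 (-0.15 to 0.33) and Cdkn2d by 0.03 (-0.25 to 0.32).

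Genes of the G1 list and of the proliferation list were mostly lower after UVA without passing. Of 11 G1 cyclins and kinases, 9 were lower (median -0.10). Cdk6, the G1 kinase that INK4 proteins inhibit, read 1593, 1332, 1860 and 1285 in number 1 and 1043, 809, 1123 and 961 in number 2, lower in all 4 pairs by a mean of 0.35 log2 units (limma adjusted p = 0.600 with the number and 0.0660 with the culture as a block). Cdkn3, a phosphatase that acts on CDK2, differed by -0.34. Of 23 E2F and proliferation genes, 19 were lower (median -0.07), with Plk1, a mitotic kinase, at -0.34 and Ccna2, cyclin A2, at -0.34. The median of the 23 genes was 0.0018 in number 1 and -0.15 in number 2. Of the 12 pocket protein and E2F genes 4 were lower, with E2f8 at -0.24 and E2f2 at 0.14. Among lamina genes Lemd3, an inner membrane protein, was higher (0.23) and Zmpste24, the lamin A protease, lower (-0.12). Among chromatin proteins Cbx5, heterochromatin protein 1 alpha, differed by -0.22 and Hmgb2 by -0.19. None of these genes passed.

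Whether UVA-1 acted differently without Atg7 was asked by the interaction, the UVA minus sham difference in KO minus that in WT. It passed for none of the 9 genes, with limma adjusted p = 1 for each in all 3 fits, and 0% of all genes were called. The intervals were wide. For Cdkn1a the interaction was -0.16 (interval -0.43 to 0.11 with the number as a block), for Lmnb1 0.0088 (-0.63 to 0.65), for Cdkn2a 0.08 (-0.46 to 0.63) and for Cdkn2c 0.29 (-0.35 to 0.93). Cdkn1c had the largest, at -0.43 (-0.95 to 0.09): UVA minus sham was 0.16 and 0.06 in the WT cultures and -0.17 and -0.47 in the KO cultures of numbers 1 and 2. In the culture block fit the interval was -0.76 to -0.10 for Cdkn1c and 0.0018 to 0.58 for Cdkn2c, both without 0. The unadjusted limma p was 0.0161 and 0.0489, and the adjusted p was 1 for each. The share of all genes at an unadjusted p under 0.05 is not given for the interaction. For the averaged UVA comparison that share was 12.6% in the same fit, so these 2 intervals do not set the genes apart.

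For 5 of the 9 genes the replicate number separated the arrays more than genotype or UVA did. All 4 arrays of one number lay apart from all 4 of the other for Cdkn1b, Cdkn1c, Cdkn2c, Cdkn2d and Rb1, as for 32.1% of all genes. Cdkn1c ranged from 803 to 904 in number 1 and from 137 to 220 in number 2, 5.27-fold higher in number 1, a larger absolute difference than for 99.3% of genes. Cdkn2c ran the other way, 1.58 log2 units higher in number 2 (504 to 810 against 174 to 213). Cdkn2d was 1.92-fold, Rb1 1.59-fold and Cdkn1b 1.48-fold higher in number 2. Cdkn1a differed least, at 1.02-fold. The proliferation genes were all higher in number 2, by a median of 1.93 log2 units, as were the 10 melanocyte markers (0.98), while all 11 fibroblast markers were lower (-1.74). The part of cell composition or growth in these differences was not tested, and what the numbers stand for is not stated in the labels.

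**Figure D5:**
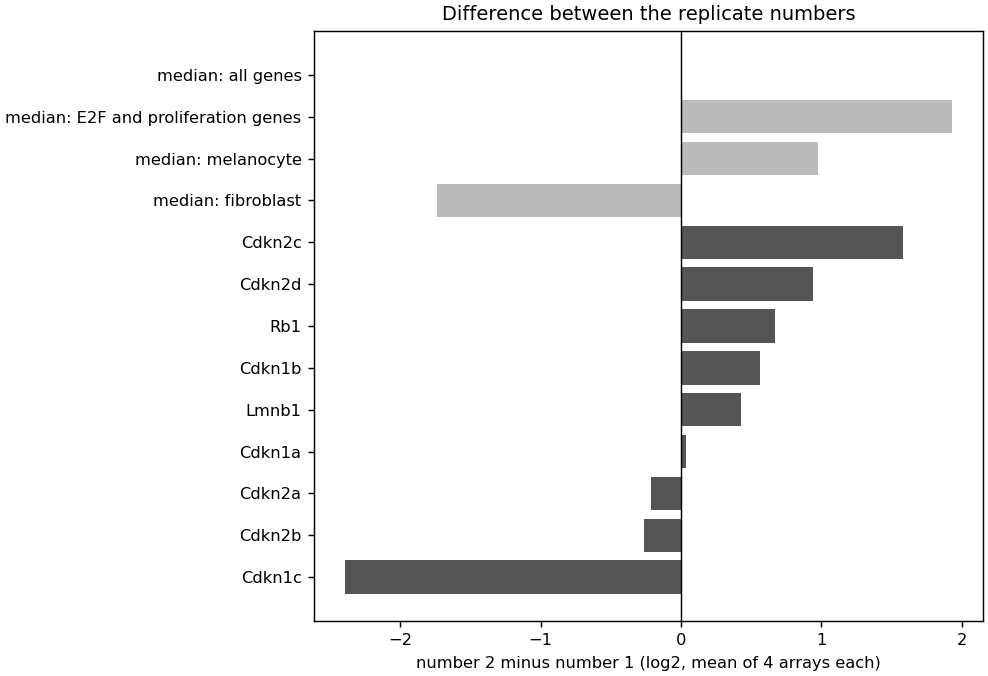
Difference between the means of the 4 arrays of number 2 and the 4 of number 1 (log2) for each of the 9 genes (dark bars) and the medians of 3 gene lists and of all genes (light bars). Cdkn1c and the fibroblast markers are lower in number 2, and Cdkn2c, Cdkn2d and the proliferation genes are higher (no error is drawn).

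The genes most like 3 of the members were found by Pearson's r over the 8 arrays after the mean of each number was removed, among 16407 genes with a mean of at least 6 log2 units. With 8 arrays and so many genes, high values of r are reached in part by the choice of the best, and r is given as a description. For Lmnb1 these were Trim59, a RING-finger protein gene (r = 0.995), Tbc1d31 (0.995) and Psip1, which encodes a chromatin-binding coactivator (0.990). Trim59 read 353, 339, 338 and 290 in number 1 and 979, 756, 650 and 578 in number 2. For Cdkn2a they were Clec2d, a lectin gene (0.997), Casp12, a caspase gene (0.996), and Spred1, an inhibitor of RAS signalling (0.996). For Cdkn1a they were Slc2a10, a glucose transporter gene (0.987), Zfp646 (0.975) and Ttc34 (0.974).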

How the data were processed

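The authors deposited linear intensity values, whole numbers from 7 to 22585, where log2 values had been planned for, and log2 was taken here. RMA in Affymetrix Expression Console 1.3.1.187 made them, per the submitters' processing notes (background correction, quantile normalization, probe summarisation). The genome build is not given in the sources used here. RMA equalises the arrays' distributions, which would hide a shift common to most transcripts. Rounding coarsens dim values, and the number of arrays limits precision.

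Groups and numbers came from the sample titles. Of 41345 probe sets, the 23521 with a single symbol were kept, and the brightest on average stood for its gene (22180 genes). Log2 values were fitted with limma 3.58.1 in R 4.3.3, 1 mean per group over 8 arrays, eBayes with trend, two-sided, Benjamini-Hochberg over all genes. Residual degrees of freedom were 4 without a block, 3 with the replicate block and 2 with the culture block. Whether numbers pair the arrays was checked by the correlation of deviations from group means (0.799 to 0.916 over the 6 pairs of groups). Between sham and UVA it was 0.916 within WT and 0.843 within KO, and across genotypes 0.799 to 0.818. The numbers were therefore treated as pairing. This comes from the data and the titles, and there are 2 numbers only. The fit was tested on simulated data. P-values set a difference against the spread between these arrays, as limma estimates it with information from all genes.

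The members, gene lists and tests were chosen with earlier results of these data known. Genes named beside the members are, per pathway list and averaged comparison, the 2 with the largest blocked difference, any past the threshold without or with the replicate block, and the 3 most alike in pattern. Lmna, Lmnb2, Atg7, the marker genes and the list genes named for their sign were chosen after their values were seen. The alternatives tried were the blocks, each array left out, each number alone, culture means, quantile and median scaling, a pseudocount of 16, removal of genes with a mean under 6 log2 units, no trend and the mean of all probe sets. Promoter sequences are from RefSeq's table (GRCm38.p6); the 50 bases after each start were left out.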

Additional observations from a re-analysis of the deposited data

Results flagged for a closer look

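Cdkn1c was the 1 gene of the 9 whose UVA minus sham difference had one sign in both WT cultures (0.16 and 0.06) and the other in both KO cultures (-0.17 and -0.47). How many of all genes share this sign pattern is not given here, so it is a description only. The interaction was -0.43 and did not pass (limma adjusted p = 1 in each fit). With a block for each combination of genotype and number, its interval was -0.76 to -0.10. In number 2 Cdkn1c read 137 after sham and 143 after UVA in WT, and 220 and 159 in KO. These were dim values, since the array medians of number 2 were 114 to 115.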

How the results depend on the processing

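None of the 9 genes passed under any alternative run, so no call depended on the processing. The count of all genes called did. Without a block it was 0 in the 7 comparisons. With the replicate block 7 genes passed for KO against WT averaged over treatments, 3 for UVA against sham averaged over genotypes, 1 for UVA in WT and 2 for UVA in KO. With a block for each combination of genotype and number the counts were 97, 12 and 2 for the UVA comparisons (averaged, WT, KO). With 1 array left out the averaged UVA count was 0 to 2 with the replicate block and 0 without it. Culture means (0 genes called with and without the replicate block), quantile or median scaling, the pseudocount, the filter on dim genes and the fit without trend changed no count from 0. The replicate block left all members' differences as they were, since the design is balanced, and narrowed their intervals.

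The directions for Lmnb1 (-0.74 to -0.26), Cdkn2a (0.24 to 0.48) and Cdkn2b (0.15 to 0.39) in KO against WT, and for Cdkn1a after UVA (0.21 to 0.33), held whichever single array was left out, with or without the block. For Cdkn1a the unblocked sign could not turn, since all 4 UVA arrays lay above all 4 sham arrays. Nor could it turn for Cdkn2a, since within each treatment both KO arrays lay above both WT arrays. Leaving out 1 array keeps the rest of its number, so these runs do not show the dependence on 1 number. Other directions turned when 1 array was left out, which leaves the numbers unequal between the groups. For KO against WT the ranges were -0.39 to 0.036 (Cdkn1b), -0.46 to 0.87 (Cdkn1c), -0.66 to 0.33 (Cdkn2c), -0.48 to 0.17 (Cdkn2d) and -0.16 to 0.23 (Rb1). For UVA against sham they were -0.12 to 0.30 (Cdkn1b), -0.77 to 0.56 (Cdkn1c), -0.18 to 0.055 (Cdkn2a), -0.11 to 0.13 (Cdkn2b), -0.67 to 0.31 (Cdkn2c), -0.29 to 0.36 (Cdkn2d) and -0.13 to 0.26 (Rb1). With the block, the UVA ranges that still crossed 0 were -0.0065 to 0.18 (Cdkn1b), -0.22 to 0.016 (Cdkn1c), -0.18 to 0.053 (Cdkn2a), -0.075 to 0.091 (Cdkn2b) and -0.089 to 0.16 (Cdkn2d). With the mean of all probe sets, which adds a dim probe set of Rb1 at 16 to 29, Rb1 turned to -0.034 for KO against WT and -0.0079 for UVA. With quantile scaling Cdkn2b after UVA was -0.0033.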

Other observations

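Regulators of the Ink4-Arf locus showed no common direction. Of 16 measured, 8 were higher and 8 lower in KO (median -0.0031) and 0 passed. Id1, a helix-loop-helix repressor of Cdkn2a transcription, read 285, 303, 395 and 372 in number 1 and 398, 333, 666 and 579 in number 2 (order WT sham, WT UVA, KO sham, KO UVA), higher in KO in all 4 pairs by 0.58 on average (SE 0.11, limma adjusted p = 0.308 with the replicate block), while Cdkn2a was higher in KO in the same pairs. Mitf, the master regulator of melanocytes, was lower in KO in all 4 pairs (-0.27). After UVA, 9 of the 16 were higher and 0 passed, with Kdm6b, an H3K27 demethylase, at 0.22 and Mitf at -0.23.

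Of 11 genes of p53 control and checkpoint kinases, 3 were higher and 8 lower in KO (median -0.04) and 0 passed. Chek2, a checkpoint kinase, was at 0.826 of WT and lower in all 4 pairs, and Mdm2 was higher in KO in all 4, by 1.17-fold on average. After UVA 6 of the 11 were higher, among them Usp7, the deubiquitinase of MDM2 and p53 (0.16).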
